A study of Rattus norvegicus with 12 samples.

Results

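AMPA receptors are the ion channels that carry most fast excitatory transmission between neurons. Each channel is built from 4 subunits of the GluA family, encoded by Gria1, Gria2, Gria3 and Gria4, and is joined by small membrane proteins, the transmembrane AMPA receptor regulatory proteins or TARPs, which bring the receptor to the synapse and slow its closing. The TARPs are encoded by genes of the Cacng family, named for the calcium channel gamma subunit they resemble. Cacng2 (stargazin), Cacng3, Cacng4 and Cacng8 encode the TARPs of type I, and Cacng5 and Cacng7 those of type II. The GluA2 subunit, encoded by Gria2, makes the channel nearly impermeable to calcium once its transcript has been edited, and its loss has been studied for this reason in ischemia. The gamma-8 protein of Cacng8 is the TARP for which the hippocampus is best known.

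The mRNA of these 10 genes, 4 subunits and 6 TARPs, was followed after oxygen and glucose deprivation (OGD), a model of ischemia, in primary cultures of rat hippocampal neurons. They are the members of the receptor and TARP families, out of 15154 genes named on the array. Cells came from Wistar rat embryos of embryonic day 18 and were kept for 14 to 15 days in culture. OGD cultures spent 2 h in glucose-free saline with 25 mM sucrose in an anaerobic chamber, and control cultures spent the same time in air with CO2 in saline with 25 mM glucose. Both were then returned to conditioned medium for 7 h or 24 h of recovery. Each of the 4 groups (control and OGD at 7 h, control and OGD at 24 h) held 3 arrays, with 3 independent cultures as biological replicates. Whether arrays of equal number in different groups came from the same culture preparation is not given in the sources used here. The cultures were called neurons by the study, which estimated that about 10% of their cells were glia. Markers of other cells are also given further on.

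Each gene was read by 1 probe of a one-color Agilent array, the brightest of those whose accession belonged to the gene. Levels are given as the log2 intensity of the probe minus the median of all probes on the same array, so a level of 1 is an intensity 2 times that of the median probe. A level says nothing of the amount of one mRNA against another, because probes differ in brightness, and levels are compared only within a gene. Ratios and sums of probes, given further on, are read only between groups. A change is the mean of the OGD arrays minus the mean of the control arrays on this log2 scale. A gene is called when limma, fitted to all 4 groups together, gave an unadjusted p under 0.05. The study's methods asked for a fold change of 2 as well, which is not part of a call here. All 10 genes were well above background on all 12 arrays, and none was saturated. Shares of all probes, given further on, are over 30367 probes. Of these, 20885 were well above background on all 12 arrays with no value missing. The genes and the shares beside them are thus not matched for brightness.

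The arrays differed in brightness. The median spot intensity ran from 131 units on the OGD 24 h replicate 1 array to 660, and was 234 on the OGD 7 h replicate 1 array, the lowest of the 7 h arrays. The share of spots well above background was 78.3% at the lowest and 87.1% at the highest. Control and OGD arrays of the same time and replicate number shared a slide, and on 3 of the 6 slides the OGD array was scanned apart from the control array, by 211 min (replicates 1 and 2 at 7 h) or 177 min (replicate 1 at 24 h). The 24 h and 7 h arrays were on different slides. Counts and named genes that lean on the replicate 1 arrays are therefore given with and without them. Under centering on the 75th percentile the median change of all probes was 0.06 at 7 h and 0.12 at 24 h, against -0.06 and 0.01 here, and scaling to a spike-in probe put it at -0.83 and -1.01. Of the probes called at 7 h, as defined above, 2135 were below control and 1455 above it, and at 24 h 1880 were below and 2280 above. The 75th percentile gave 1543 below and 1648 above at 7 h, and 1704 below and 2463 above at 24 h. Spike-in scaling gave 269 below and 80 above at 7 h, and 522 below and 20 above at 24 h. All changes below are thus relative to the median probe. Each of these scalings moves all probes of an array by 1 shared amount. A change of sign under spike-in scaling or the 75th percentile, where given below, is therefore this shared shift and not a separate check of the gene.

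At 7 h of recovery 1 of the 10 genes, Cacng3, was called lower in OGD and 0 were called higher, where 7.03% of all probes were called lower and 4.79% higher. Once 24 h had passed, 5 of the 10 genes were called lower, Gria1, Gria4, Cacng3, Cacng7 and Cacng8, and 0 were called higher, where 6.19% of all probes were called lower and 7.51% higher. The median change of the 10 genes was -0.08 at 7 h and -0.66 at 24 h, beside -0.06 and 0.01 for all probes. After Benjamini-Hochberg adjustment over the 30367 probes, 0 of the 10 genes had an adjusted limma p under 0.05 at either time. With a fold of at least 2 asked for as well, 1 gene was lower at 7 h (Cacng3) and 1 at 24 h (Gria1) and 0 were higher, where 1.66% of all probes were lower and 2.08% higher at 7 h, and 1.96% and 3.71% at 24 h. No probe on the array had an adjusted p under 0.05 in these comparisons, and the adjusted p of the 10 genes was between 0.262 and 1 at 24 h. On leaving out the OGD 24 h replicate 1 array, 3 genes were called lower at 24 h (Gria1, Cacng7 and Cacng8) and the median change was -0.44. The count was also 3 without the control 7 h replicate 2, the OGD 7 h replicate 3, the control 24 h replicate 1 or the control 24 h replicate 2 array, and 0 with spike-in scaling. With both slides of replicate 1 left out, 2 genes, Gria1 and Cacng7, were called lower at 24 h and the median change was -0.25. The shares of all probes are those of the fit to all arrays. None is given for fits with arrays left out, here or below, so the counts of those fits have no such reference.

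**Figure D1:**
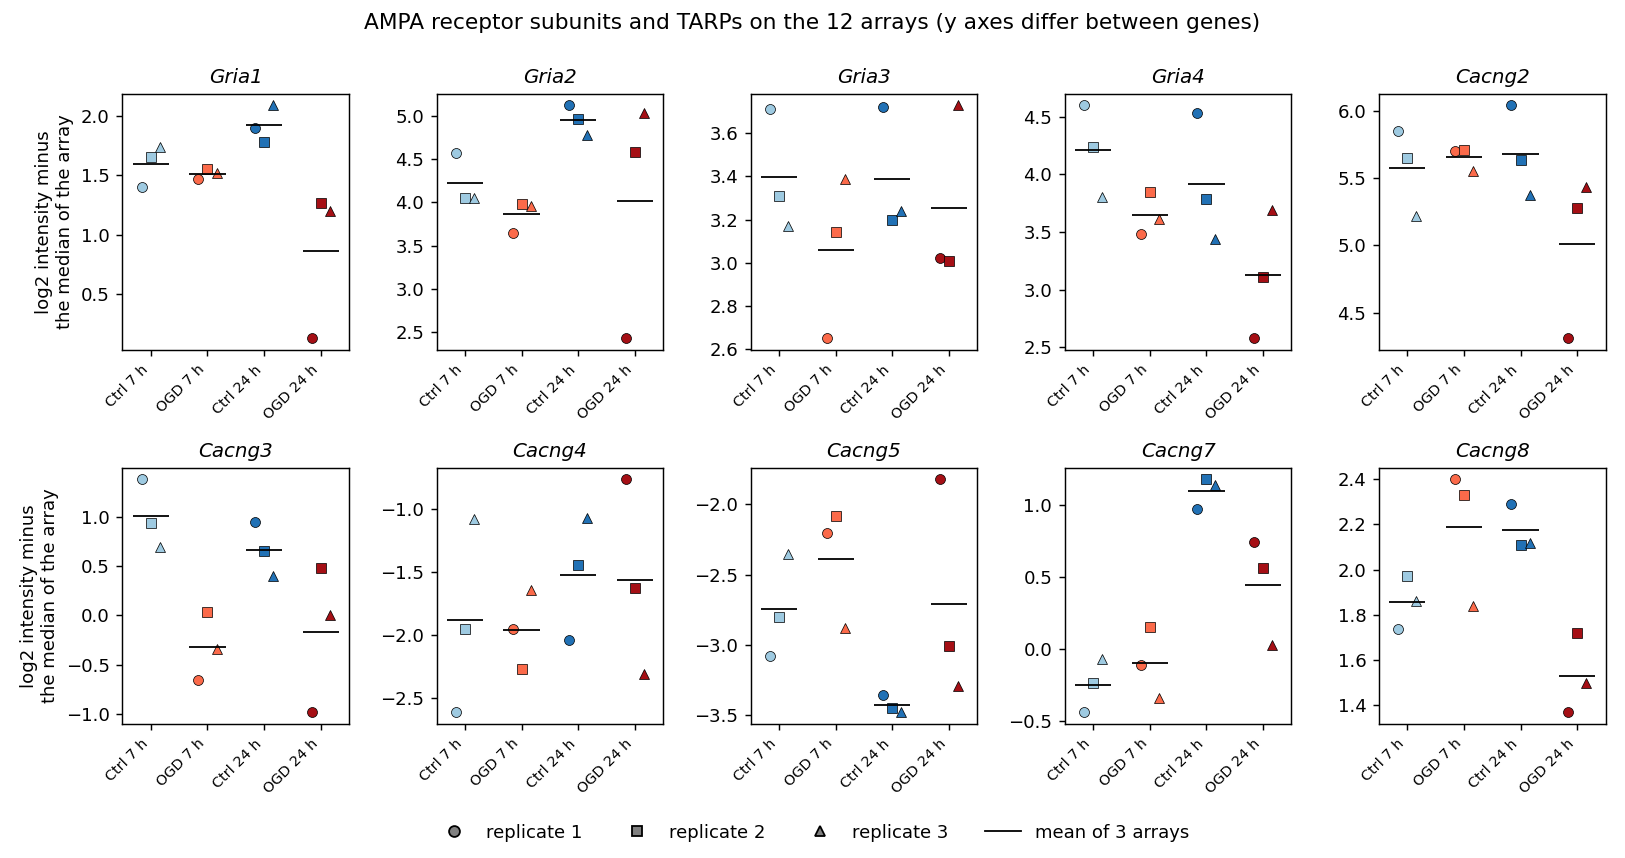
Level of each gene on the 12 arrays (log2 intensity minus the median of the array; the y axes differ between genes), by group on the x axis. Points are arrays, with the symbol giving the replicate number, and the line is the mean of 3 arrays. The OGD 24 h points of Gria1, Cacng7 and Cacng8 all lie below the control 24 h points, while the low OGD 24 h mean of Gria2 (4.01) comes from 1 point at 2.43. Of all probes, 7.02% were lower in OGD without overlap at 24 h.

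Gria1 encodes GluA1, a subunit that is inserted into synapses during plasticity. Its level was 1.40, 1.65 and 1.74 on the control arrays and 1.47, 1.55 and 1.52 on the OGD arrays at 7 h (replicates 1, 2 and 3 in this order, here and below). After 24 h it was 1.90, 1.78 and 2.09 in control and 0.13, 1.27 and 1.20 in OGD. The groups overlapped at 7 h, and at 24 h all 3 OGD arrays were below all 3 control arrays, with replicate 1 far below the others. Of all probes, 7.02% were lower without overlap at 24 h. The change was -0.09 ± 0.28 (SE) at 7 h, and 0.03 with the 75th percentile. At 24 h it was -1.06 ± 0.28 (95% interval -1.67 to -0.44, adjusted p = 0.262, limma), which left 48.1% of the control level. Within the 3 slides the 24 h differences were -1.77, -0.51 and -0.89. The 24 h change was still called, at -0.69, without the OGD 24 h replicate 1 array, and at -0.70 without both slides of replicate 1.

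Gria2, the subunit that sets calcium permeability, stood at 4.57, 4.05 and 4.05 in control and 3.64, 3.98 and 3.96 in OGD at 7 h. The OGD arrays were lower on all 3 slides at this time and did not overlap with the controls, although the differences on the slides of replicates 2 and 3 were only -0.08 each, after -0.93 on that of replicate 1. Of all probes, 23.6% were lower on every slide at 7 h, and 15.5% were lower without overlap. At 24 h Gria2 was at 5.12, 4.96 and 4.77 in control and at 2.43, 4.58 and 5.03 in OGD. Here replicate 1 was far lower than its control, replicate 2 was slightly lower and replicate 3 was higher. The change was -0.36 ± 0.53 at 7 h (adjusted p = 0.821, limma) and -0.94 ± 0.53 at 24 h (adjusted p = 0.441), and neither was called. With that OGD 24 h replicate 1 array left out the 24 h change was -0.15, and with the OGD 24 h replicate 3 array left out it was -1.45 and called. The size of the change and its call thus depended on which OGD array was in the fit.

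Gria3 encodes GluA3, which pairs with GluA2 in a large share of hippocampal receptors. Its level was 3.71, 3.31 and 3.17 in control and 2.65, 3.14 and 3.39 in OGD at 7 h. The 24 h levels were 3.72, 3.20 and 3.24 in control and 3.02, 3.01 and 3.73 in OGD. Both pairs of groups overlapped, and replicate 3 was higher in OGD than in control at both times. The change was -0.34 ± 0.28 at 7 h (adjusted p = 0.646, limma) and -0.13 ± 0.28 at 24 h (adjusted p = 0.868). The 95% interval at 24 h ran from -0.75 to 0.48.

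Gria4 encodes GluA4, the subunit with fast kinetics that is prominent in some interneurons and in young neurons. It was at 4.60, 4.24 and 3.8 in control and 3.48, 3.85 and 3.61 in OGD at 7 h. Later, at 24 h, its arrays read 4.53, 3.79 and 3.44 in control and 2.58, 3.11 and 3.69 in OGD. Replicates 1 and 2 were lower in OGD at 24 h and replicate 3 was higher, so the groups overlapped. The change was -0.57 ± 0.35 at 7 h (adjusted p = 0.526, limma) and -0.79 ± 0.35 at 24 h (adjusted p = 0.355). The slides gave -1.94, -0.68 and 0.25 at 24 h, and the call was lost without the OGD 24 h replicate 1 array (-0.52). With single arrays left out in turn the change ran from -1.07 to -0.49, and it was called in 4 of the 12 fits.

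A second probe was available for Gria2, Gria3 and Gria4, and for 2 of them it differed from the first. For Gria2 both probes moved together over the 12 arrays (Pearson r = 0.98), and the second one gave changes of -0.40 at 7 h and -0.80 at 24 h. For Gria3 the second probe was listed under another transcript accession of the gene and had r = 0.33 with the first. At 7 h it was higher in OGD on all 3 slides (0.28, 0.60 and 0.42), with a change of 0.43 ± 0.23 (adjusted p = 0.479, limma), where the first probe gave -0.34. For Gria4 the second probe, also listed under another accession, had r = -0.24 with the first. It too was higher in OGD on all 3 slides at 7 h (0.60, 0.19 and 0.49; change 0.43 ± 0.23, adjusted p = 0.492), where the first probe gave -0.57. Of all probes, 23.7% were higher in OGD on every slide at 7 h. At 24 h the second Gria4 probe was lower on all 3 slides (-0.20, -0.66 and -0.03; change -0.30 ± 0.23, adjusted p = 0.566), as were 12.1% of all probes. The difference of the first and second probe was compared within each array by an exact two-sided permutation test of the OGD against the control arrays, over both times together. By this exact test the Gria4 difference shifted by -0.74 (p = 0.04, adjusted over the 3 genes 0.12), that of Gria3 by -0.35 (p = 0.11, adjusted 0.165) and that of Gria2 by -0.05 (p = 0.57, adjusted 0.57). The statements on Gria3 and Gria4 thus hold for the brighter probe and not for the gene as a whole, and which transcripts each probe detects was not tested.

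Since GluA2 decides the calcium permeability of the receptor, the Gria2 signal was set against that of each other subunit on the same array, a ratio that a single scaling factor per array leaves as it is. Quantile normalization, which is not such a factor, moved the 24 h change of Gria2 over Gria1 from 0.12 to 0.20. Only changes of such a ratio can be read, because the probes differ in brightness. The log2 ratio of Gria2 over Gria1 was 2.63 ± 0.48 (SD, n = 3) in control and 2.35 ± 0.15 in OGD at 7 h, and 3.03 ± 0.30 and 3.15 ± 0.78 at 24 h. Gria2 over Gria3 was 0.83 ± 0.07 and 0.80 ± 0.21 at 7 h, and 1.56 ± 0.18 and 0.76 ± 1.17 at 24 h. Gria2 over Gria4 was 0.01 ± 0.22 and 0.21 ± 0.12 at 7 h, and 1.03 ± 0.39 and 0.88 ± 0.90 at 24 h. Over both times, the exact two-sided permutation p was 0.775 for Gria1, 0.245 for Gria3 and 0.94 for Gria4, with adjusted values of 0.94, 0.735 and 0.94 over these 3 pairs. With 3 arrays against 3, the smallest p that 1 time alone allows is 0.1. The spread in OGD at 24 h was set by replicate 1, on which Gria2 was low against all 3 other subunits. Without that array the 24 h change of the ratio was 0.54 over Gria1, -0.13 over Gria3 and 0.37 over Gria4, in place of 0.12, -0.81 and -0.15.

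**Figure D2:**
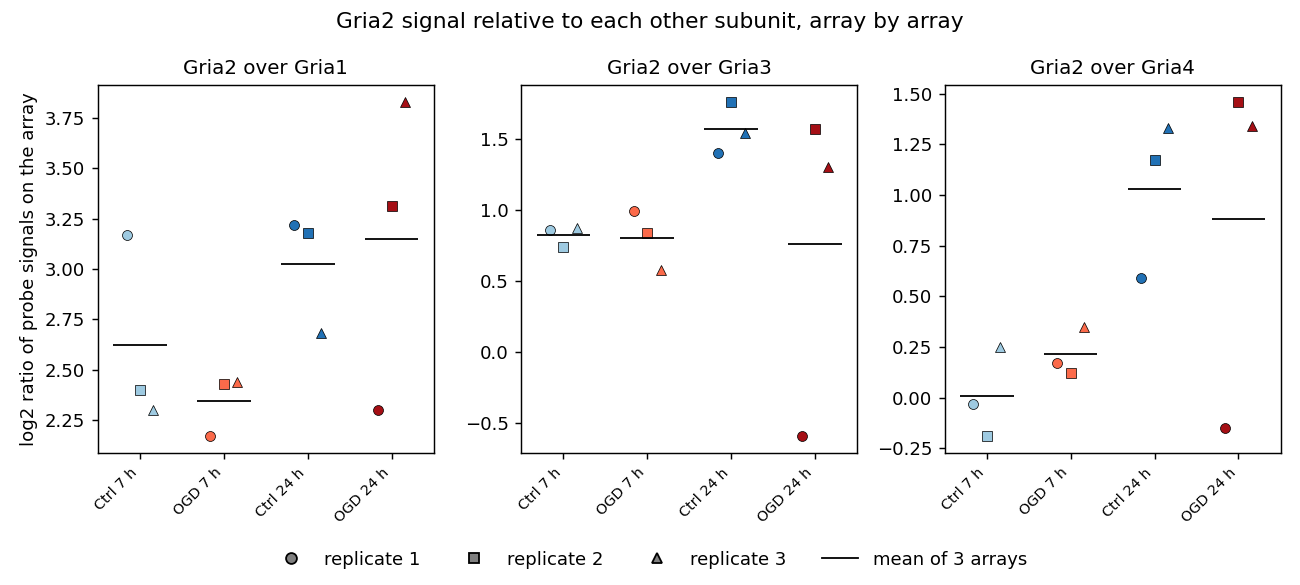
Log2 ratio of the Gria2 probe signal over that of Gria1, Gria3 and Gria4 on each array (y axis), by group (x axis). Points are arrays and lines are means of 3. In OGD at 24 h replicate 1 lies lowest in all 3 panels, while replicates 2 and 3 lie close to the control arrays for Gria3. For Gria1 and Gria4 these replicates lie above the control 24 h arrays, for Gria4 narrowly (1.46 and 1.34, with the highest control at 1.33).

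Among the TARPs of type I, Cacng2 encodes stargazin, the founding member of the family. It was at 5.85, 5.65 and 5.22 in control and 5.70, 5.71 and 5.55 in OGD at 7 h, with overlapping groups. Its 24 h levels were 6.04, 5.63 and 5.37 in control and 4.31, 5.28 and 5.43 in OGD. Replicate 1 was much lower in OGD at 24 h, while replicates 2 and 3 lay near the lower controls. The change was 0.08 ± 0.31 at 7 h (adjusted p = 0.924, limma), of the opposite sign (-0.70) with spike-in scaling. At 24 h it was -0.67 ± 0.31 (95% interval -1.35 to 0, adjusted p = 0.367), which was not called. The 24 h change was -0.32 without the OGD 24 h replicate 1 array, while 9 of 24 alternatives called it, among them the 75th percentile (-0.56), quantile normalization (-0.55) and the fits without the control 24 h replicate 3 (-0.83), OGD 24 h replicate 2 (-0.81) or OGD 24 h replicate 3 (-0.88) array.

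Cacng3, which encodes the gamma-3 TARP of cortical and hippocampal neurons, was the gene called at both times. Its level was 1.38, 0.94 and 0.69 in control and -0.65, 0.04 and -0.34 in OGD at 7 h. The 24 h arrays gave 0.95, 0.65 and 0.40 in control and -0.98, 0.48 and 0 in OGD. All 3 OGD arrays were below all control arrays at 7 h, and at 24 h replicate 2 of OGD overlapped with replicate 3 of control. Of all probes, 15.5% were lower without overlap at 7 h. The change was -1.32 ± 0.36 at 7 h (95% interval -2.11 to -0.53, adjusted p = 0.266, limma), which left 40.1% of the control level. It was -0.84 ± 0.36 at 24 h (adjusted p = 0.346, limma), or 56% of control. The slides gave -2.03, -0.89 and -1.03 at 7 h and -1.93, -0.18 and -0.40 at 24 h, so the replicate 1 slide was the lowest at each time. Without the slides of replicate 1 the 7 h change of Cacng3 was -0.96 and still called, and its 24 h change was -0.29 and not called. With single arrays left out the 24 h change was called in 6 of the 12 fits. The difference between its changes at the 2 times was 0.48 ± 0.50 (adjusted p = 1, limma).

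The promoter of Cacng3 is shown because the study looked at REST, a repressor that keeps neuronal genes silent in other cells by binding repressor element 1 (RE1). RefSeq promoter windows of 300 bases (250 before and 50 after the start, build GRCr8) were found for 5 of the 10 genes, Gria4, Cacng2, Cacng3, Cacng5 and Cacng8. They were searched on both strands for the left and right parts of RE1 (TTCAGCACC and GGACAGC), the cAMP response element (TGACGTCA), the hypoxia response core (ACGTG) and the TATA box (TATAAA), and matches to these letters are in capitals. Cacng3 lies on the + strand at chr1:186632312-186632611, and Cacng8, the other type I TARP called at 24 h and in this set, lies on the - strand at chr1:74690954-74691253.
Cacng3: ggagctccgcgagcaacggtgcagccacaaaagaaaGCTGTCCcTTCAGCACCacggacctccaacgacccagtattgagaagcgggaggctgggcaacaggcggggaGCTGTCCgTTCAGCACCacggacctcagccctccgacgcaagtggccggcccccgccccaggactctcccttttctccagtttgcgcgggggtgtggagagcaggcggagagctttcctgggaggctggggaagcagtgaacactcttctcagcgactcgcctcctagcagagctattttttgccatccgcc
Cacng8: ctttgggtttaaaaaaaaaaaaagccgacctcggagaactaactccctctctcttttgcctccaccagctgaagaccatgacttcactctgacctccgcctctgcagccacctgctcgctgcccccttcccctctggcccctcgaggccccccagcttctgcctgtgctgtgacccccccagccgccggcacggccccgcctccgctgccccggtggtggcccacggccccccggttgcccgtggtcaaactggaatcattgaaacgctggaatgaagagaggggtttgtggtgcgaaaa
The Cacng3 window held TTCAGCACC at 2 places, from positions -206 and -134 relative to the start, each with a right part on the other strand 1 base before it (GCTGTCC as written here). GGACAGC did not follow TTCAGCACC on its own strand at either place. Neither place thus held both exact parts in left-to-right order on 1 strand, and the capitals do not mark a whole RE1. At both places the left part is followed by AC and then by GGAC, the letters that open the right part. A search for exact letters does not find such a partial match, so it does not show that an RE1 is absent. The study lists the gene of the gamma-3 TARP among the REST targets that it proposes. The left part occurs in 0.356% and the right part in 6.59% of the 33469 windows of the table. Both copies continue into TTCAGCACCACGGAC, a run that no other window of the table holds (1 of 33469). The Cacng8, Gria4 and Cacng5 windows held none of the 5 motifs, and the Cacng2 window held the TATA box letters at 3 places, which 14.2% of all windows hold. The other motifs are found in 1.83% (TGACGTCA) and 19.3% (ACGTG) of the windows. The Cacng3 window has 63% G and C and the Cacng8 window 61.7%, where the median window has 51.7%. A match is a string of letters and not a bound site, and binding was not tested here.

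Cacng4 encodes gamma-4, a TARP that is most abundant early in development. It was a dim probe, at -2.61, -1.95 and -1.08 in control and -1.95, -2.27 and -1.64 in OGD at 7 h. At the later time it was at -2.04, -1.44 and -1.07 in control and -0.76, -1.62 and -2.31 in OGD. The arrays of each group lay far apart and the groups overlapped at both times. The change was -0.07 ± 0.46 at 7 h (adjusted p = 0.955, limma) and -0.05 ± 0.46 at 24 h (adjusted p = 1), with signs that turned with the 75th percentile (0.04 and 0.06). The 95% interval at 24 h ran from -1.07 to 0.97.

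Cacng8 encodes gamma-8. It was at 1.74, 1.97 and 1.86 in control and 2.40, 2.33 and 1.84 in OGD at 7 h, where replicates 1 and 2 were higher in OGD and replicate 3 was level with its control. By 24 h it was at 2.29, 2.11 and 2.12 in control and 1.37, 1.72 and 1.5 in OGD. It was thus lower without overlap, as were 7.02% of all probes at that time. The change was 0.34 ± 0.19 at 7 h, not called and of the opposite sign (-0.44) with spike-in scaling, and -0.64 ± 0.19 at 24 h (95% interval -1.07 to -0.22, adjusted p = 0.275, limma), or 64.1% of control. The 7 h change was called without the OGD 7 h replicate 3 array (0.51) and with quantile normalization (0.44). The slides of the 24 h arrays gave -0.92, -0.39 and -0.62. Cacng8 was still called at 24 h (-0.56) when the OGD 24 h replicate 1 array was left out, and not without both slides of replicate 1 (-0.50).

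Of the TARPs of type II, Cacng7, which encodes gamma-7, was at -0.44, -0.24 and -0.07 in control and -0.11, 0.15 and -0.34 in OGD at 7 h, with overlapping groups. At 24 h the readings were 0.97, 1.18 and 1.14 in control and 0.74, 0.56 and 0.03 in OGD, all 3 below the controls. Of all probes, 7.02% were lower without overlap at 24 h. The change was 0.15 ± 0.22 at 7 h, not called and of the opposite sign (-0.63) with spike-in scaling, and -0.65 ± 0.22 at 24 h (95% interval -1.14 to -0.16, adjusted p = 0.294, limma), or 63.7% of control. Its slides gave -0.23, -0.62 and -1.11, so that replicate 1, the lowest slide for most of the genes, was here the smallest difference. The 24 h change was called at -0.80 without the OGD 24 h replicate 1 array and at -0.86 without the slides of replicate 1. It was not called without the OGD 24 h replicate 3 array (-0.44), with the 75th percentile (-0.54) or with spike-in scaling.

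Cacng5, which encodes gamma-5, was the dimmest of the 10 probes, at -3.08, -2.80 and -2.35 in control and -2.20, -2.08 and -2.88 in OGD at 7 h. At 24 h its control arrays were close together at -3.36, -3.45 and -3.48, and its OGD arrays were at -1.82, -3.01 and -3.29. It was the single gene of the 10 that was higher in OGD on all 3 slides at 24 h (1.54, 0.44 and 0.19), a pattern that 20.9% of all probes showed. Before scaling, its intensities at 24 h were 18.3, 20.2 and 18.8 units in control and 21.4, 21.9 and 24.3 in OGD, so the high level of replicate 1 goes with the low median of that array. The change was 0.35 ± 0.37 at 7 h (adjusted p = 0.728, limma) and 0.72 ± 0.37 at 24 h (adjusted p = 0.409), and it was not called. With spike-in scaling both changes had the opposite sign (-0.43 and -0.30). Its 24 h change was 0.28 once the OGD 24 h replicate 1 array was left out, and 1.02 and called without the OGD 24 h replicate 3 array.

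**Figure D3:**
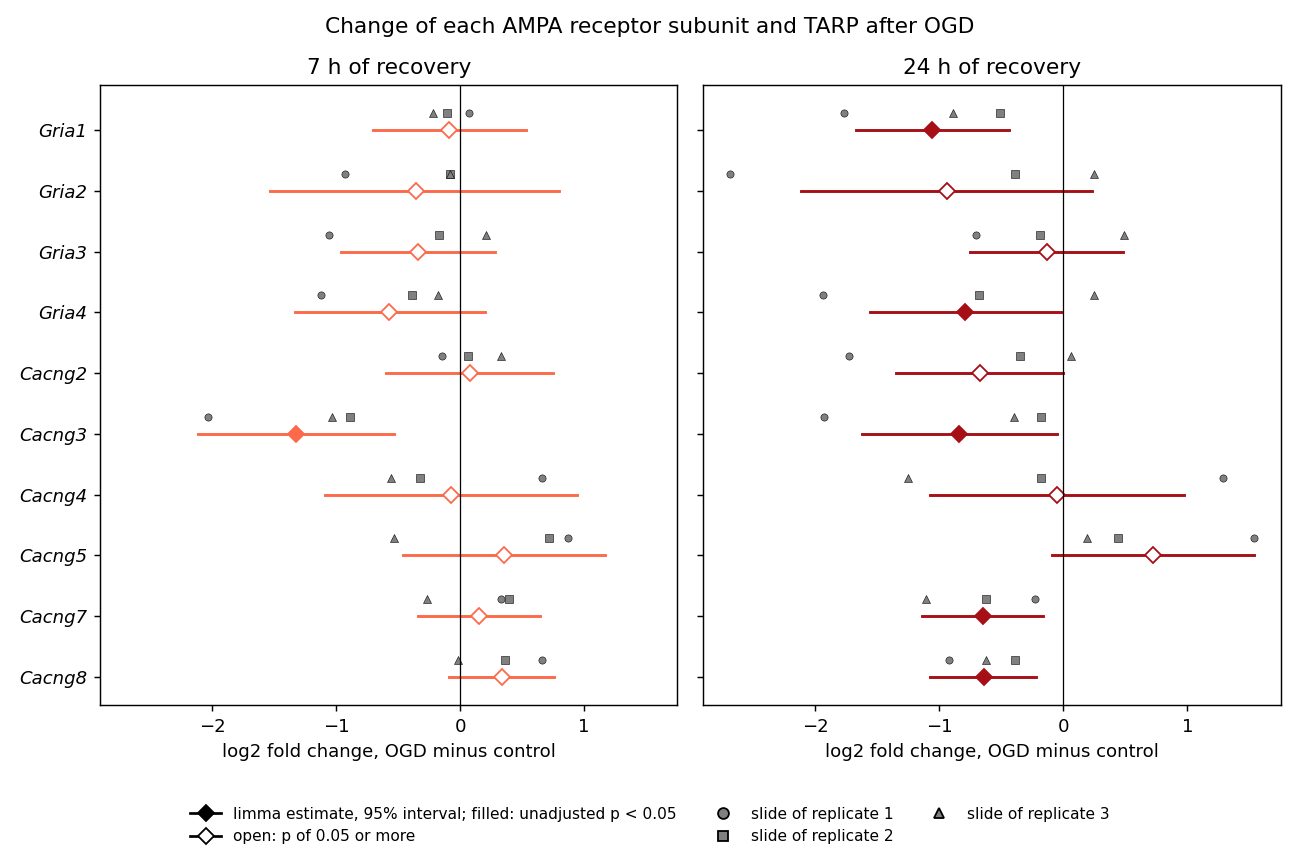
Change of each gene in OGD against control (x axis, log2 fold change) at 7 h and 24 h. Diamonds are limma estimates with 95% intervals, filled where the unadjusted p was under 0.05, and gray points are the differences within each slide. Cacng3 is the filled gene at 7 h, and Gria1, Gria4, Cacng3, Cacng7 and Cacng8 are filled at 24 h, with the replicate 1 slide lowest for 7 of the 10 genes at 24 h.

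For 3 of the 10 genes the response itself differed between the times at an unadjusted limma p under 0.05, where 3.58% of all probes did (1.4% with the lower value at 24 h and 2.18% with the higher). The change at 24 h minus the change at 7 h was -0.97 ± 0.39 for Gria1, -0.80 ± 0.31 for Cacng7 and -0.98 ± 0.27 for Cacng8. The adjusted limma p was 1 for each of them. The remaining 7 genes had differences between -0.75 (Cacng2) and 0.48 (Cacng3). The same 3 genes were found without the OGD 24 h replicate 1 array (-0.60, -0.95 and -0.90), together with Cacng3 (0.89). With both slides of replicate 1 left out, Cacng7 was the gene found (-0.92), and the differences of Gria1 (-0.53) and Cacng8 (-0.67) did not pass. Cacng7 did not pass with the 75th percentile, where Cacng2 did (-0.75), and none of the 10 passed with spike-in scaling. The count was 1 without the control 7 h replicate 1, the OGD 7 h replicate 2 or the control 24 h replicate 3 array.

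In Cacng8 and Gria1 the control level at 24 h differed from that at 7 h by 0.32 ± 0.19 and 0.33 ± 0.28, which did not pass, and the OGD level by -0.66 ± 0.19 and -0.65 ± 0.28, which had an unadjusted p under 0.05 (adjusted p = 0.13 and 0.28, limma). In Cacng7 the control level was higher at 24 h, by 1.35 ± 0.22 (adjusted p = 0.0467, limma), and the OGD level was also higher, by 0.55 ± 0.22 (adjusted p = 0.253). The adjusted p of the Cacng7 control difference was 0.0902 with the 75th percentile, and between 0.0146 and 0.196 with single arrays left out. Under spike-in scaling the difference had the opposite sign, -3.20, where the median of all probes was -4.60. Because the 2 times were on different slides, time and slide cannot be told apart in these comparisons.

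The 10 genes did not vary as 1 block over the 12 arrays. Pearson r, given as a description over arrays that share groups and brightness, was highest for Gria4 with Cacng2 (0.85) and for Gria4 with Cacng3 (0.79), and lowest for Gria2 with Cacng5 (-0.90). On the dim OGD 24 h replicate 1 array Gria2 was at its lowest level (2.43) and Cacng5 at its highest (-1.82). The r values of this paragraph were not computed without that array. Cacng7 had r between -0.34 and 0.51 with the other 9. Cacng7 and Cacng8 are neighbors on the chromosome in RefSeq, as are Cacng4 and Cacng5, and had r of 0.15 and 0.21. Of 10900 named genes well above background on all arrays, the ones most like each member were Ntm (r = 0.942) and Hs6st1 (0.932) for Gria1, Ppfia2 (0.991) and Cap2 (0.99) for Gria2, Senp7 (0.939) and Mettl26 (0.939) for Gria3, and Plekha1 (0.989) and Ppp1r14c (0.988) for Gria4. For the TARPs they were Sgsm1 (0.986) and Slco4a1 (0.981) for Cacng2, Zcchc12 (0.966) and Zfp956 (0.965) for Cacng3, Lima1 (0.921) and Plaat5 (0.907) for Cacng4, and Otos (0.963) and Lgals7 (0.949) for Cacng5. Msto1 (0.93) and Smarcd1 (0.925) were most like Cacng7, and Scn8a (0.94) and Dcc (0.919) most like Cacng8.

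Genes that assemble, carry or anchor AMPA receptors were read beside the family. Of 41 such genes listed, 35 had a named probe, and all 35 were well above background on all arrays. At 7 h 3 of the 35 (8.57%) were called lower and 0 higher, beside 7.03% and 4.79% of all probes. At 24 h 15 (42.9%) were called lower and 0 higher, beside 6.19% and 7.51%. The set of all probes also holds dim ones, so it is not matched to the 35 for brightness. The median change of the 35 was -0.24 at 7 h and -0.65 at 24 h, and 0 had an adjusted limma p under 0.05. No trafficking gene had an adjusted p below 0.255 (7 h) or 0.272 (24 h). The groups did not overlap, with OGD lower, for 16 of the 35 at 24 h, where this held for 7.02% of all probes, and for 13 at 7 h, where it held for 15.5%. For 30 of the 35 the 24 h difference was lowest on the slide of replicate 1. Without the OGD 24 h replicate 1 array 6 of the 35 were called lower at 24 h (Cnih2, Dlg2, Dlg4, Camk2a, Nptx2 and Adar), without the control 24 h replicate 1 or 2 array also 6 each time, and without both slides of replicate 1 it was 4 (Nsf, Dlg4, Nptx2 and Olfm1). The 7 h count became 6 lower and 2 higher on leaving out the OGD 24 h replicate 1 array, and 1 lower on leaving out the control 7 h replicate 3 array. The shares of all probes in this paragraph are those of the fit to all arrays, and none is given for fits with arrays left out.

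Of the scaffolds that hold the receptor at the synapse, Dlg4 (PSD-95) was lower by nearly the same amount on each slide at 24 h (-0.54, -0.57 and -0.57; change -0.56 ± 0.17). Dlg2 (PSD-93) changed by -0.81 ± 0.24 and Dlg3 (SAP102) by -0.72 ± 0.32 at 24 h, and by -0.65 and -0.31 without the OGD 24 h replicate 1 array. Dlg1 (SAP97), of the same family, was at 0.31 ± 0.20 at 7 h, higher on all 3 slides (as were 23.7% of all probes), and at 0.05 ± 0.20 at 24 h, and was not called. Dlg3 was also called at 7 h, at -0.83 ± 0.32. Of the proteins that bind the GluA2 tail, Pick1, which takes part in its internalization, was called lower at 7 h (-1.08 ± 0.28) and not at 24 h (-0.45). Grip1, which binds the same tail, was at -0.09 and -0.73 and not called. The study listed Grip1 as lower at both times on its arrays. Each trafficking gene was read here by its brightest probe alone, and other probes of these genes are not given. Grip2 was called at 24 h (-1.19 ± 0.50, with slides at -2.84, -0.33 and -0.40). Nsf, an ATPase that also binds GluA2, was called at 24 h (-1.12 ± 0.40; slides -2.11, -0.71 and -0.53). Without the OGD 24 h replicate 1 array Grip2 (-0.48) and Nsf (-0.61) were not called.

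Among the auxiliary and assembly proteins, the cornichon Cnih2, which promotes export of the receptor and works with gamma-8, was called lower at 24 h (-0.86 ± 0.28, and -0.59 without the OGD 24 h replicate 1 array), as was Porcn (-0.57 ± 0.25, and -0.36 without it, not called). Cnih3 had no probe named here. Of the proteins that act on AMPA receptors from outside the cell, those called lower at 24 h were the pentraxins Nptx1 (-1.23 ± 0.53), Nptx2 (-0.76 ± 0.25) and the receptor Nptxr (-0.60 ± 0.27), and Lrrtm2 (-0.65 ± 0.26), Lrrtm4 (-0.74 ± 0.29) and Olfm1 (-1.23 ± 0.45). Olfm2 (-0.82 ± 0.44) and Olfm3 (0.14 ± 0.46) were not called. For Nptx1 and Lrrtm4 the groups overlapped and replicate 3 was higher in OGD (0.34 and 0.11). Without the OGD 24 h replicate 1 array Nptx2 was still called (-0.56), and Nptx1 (-0.55), Nptxr (-0.35), Lrrtm2 (-0.43), Lrrtm4 (-0.42) and Olfm1 (-0.64) were not. Nptx2 was the one of these also called at 7 h (-0.64 ± 0.25). The kinase Camk2a, which phosphorylates GluA1 and TARPs, was called at 24 h (-0.65 ± 0.23, and -0.67 without that array), as was the motor Myo5a (-0.59 ± 0.25, and -0.31 without it, not called). Adarb1, the enzyme that edits the Gria2 transcript, was at -0.13 at 7 h and -0.87 ± 0.40 at 24 h and was not called, with overlapping groups and slides of -2.19, -0.75 and 0.32. The response differed between the times for 2 of the 35 (5.71%), beside 3.58% of all probes. They were Lrrtm2 (-1.23 ± 0.37) and Camk2a (-0.80 ± 0.33), each with an adjusted p of 1.

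**Figure D4:**
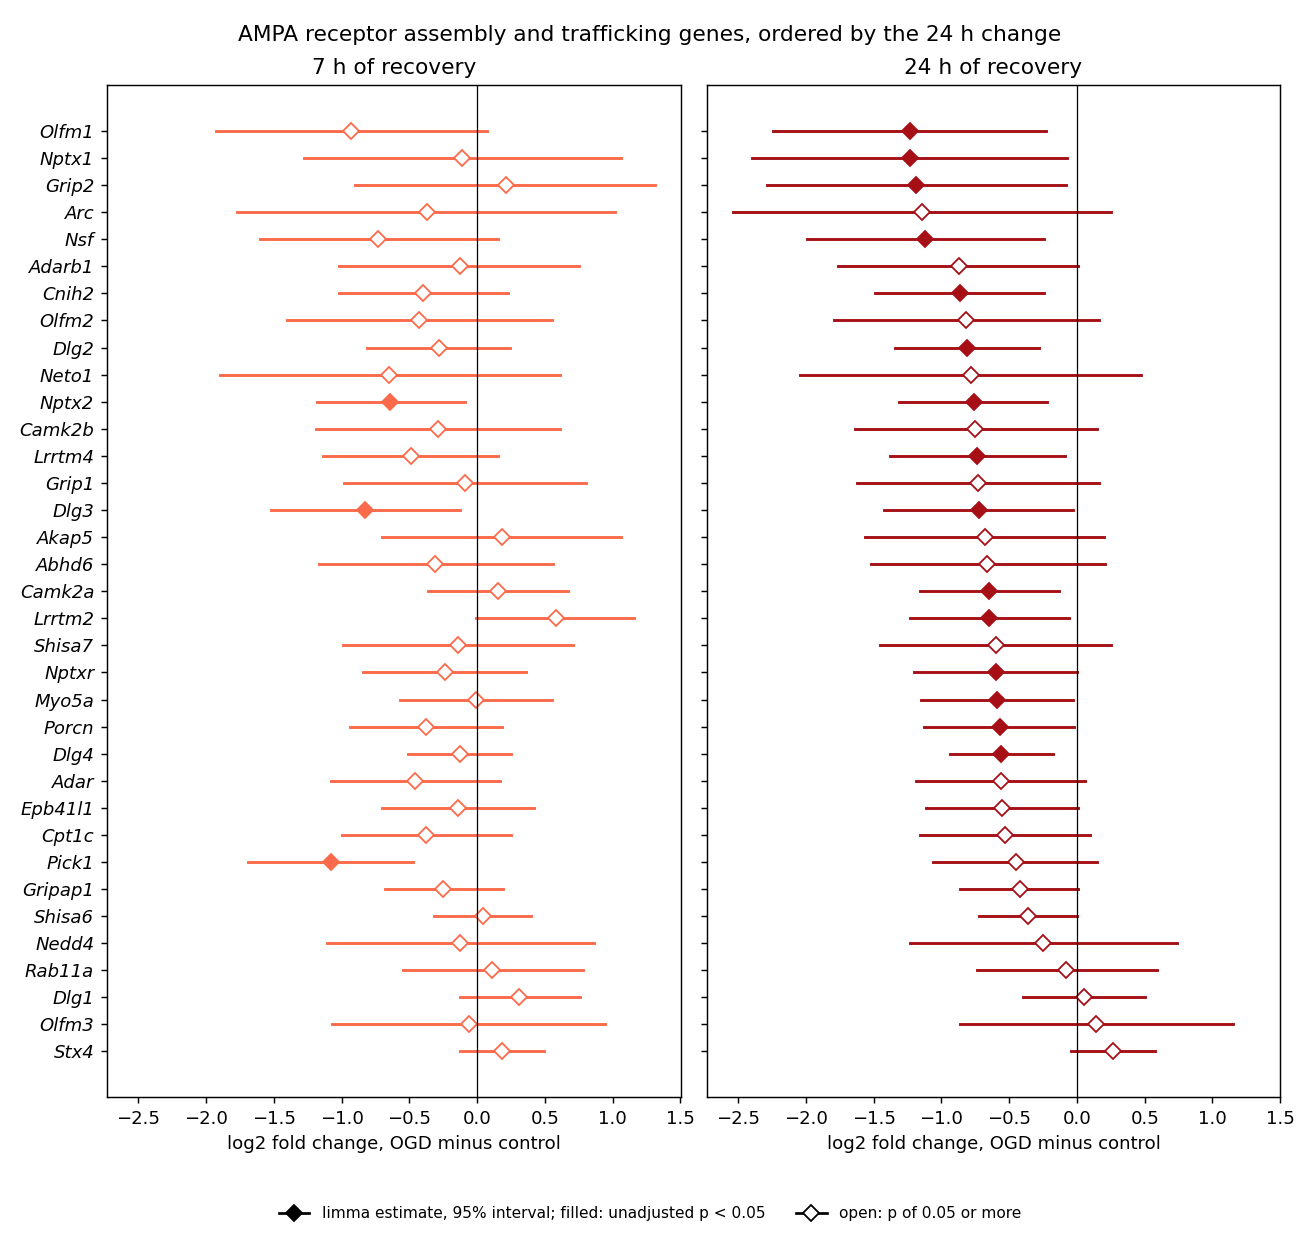
Change in OGD against control (x axis, log2 fold change) at 7 h and 24 h of the 35 measured genes of AMPA receptor assembly and trafficking, in the order of the 24 h change. Diamonds are limma estimates with 95% intervals, filled where the unadjusted p was under 0.05. The 24 h column holds 15 filled genes, all below 0, and the 7 h column holds 3, Pick1, Dlg3 and Nptx2.

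The gamma subunits of the Cacng family that are not TARPs were read as a comparison. Cacng6 was called lower at 7 h (-1.16 ± 0.42) and at 24 h (-1.05 ± 0.42, and -0.58 without the OGD 24 h replicate 1 array, not called), although 1 OGD array at 24 h was not well above background. Cacng1, the gamma subunit of skeletal muscle, was at -0.19 and 0.43. Cacng6 and Cacng8 are neighbors in RefSeq, and Cacng1 lies beside Cacng4.

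Markers of the cells in these cultures were read as well. All 17 neuron markers with a probe were well above background on all arrays, and 3 were called lower at 7 h and 11 at 24 h, with median changes of -0.50 and -1.06, where 7.03% and 6.19% of all probes were called lower. For 13 of the 17 the 24 h difference was lowest on the slide of replicate 1. Leaving out the OGD 24 h replicate 1 array gave 9 called lower at 7 h and 4 at 24 h, with a median of -0.52 at 24 h, and leaving out both slides of replicate 1 gave 3 and 4, with -0.35. No share of all probes is given for these fits, so their counts have no such reference. The summed intensity of the neuron markers relative to the array median was 809 to 1170 in control and 354, 740 and 802 in OGD at 24 h, and 734 to 954 and 639 to 888 at 7 h. In this sum and those of the other lists the brightest probes weigh most, so a sum need not follow the typical marker. Stmn2, a bright neuron probe at 8 in control at 7 h, changed by 0.31 at that time, against the median of -0.50. Astrocyte markers (14 with a probe, 12 of them well above background on all arrays) summed to 1330 to 1550 in control and 1710 to 2200 in OGD at 7 h, and to 1480 to 1650 and 1640 to 1750 at 24 h. Of these, 1 was called lower and 2 higher at 7 h and 0 were called at 24 h. Among all probes, 4.79% were called higher at 7 h and 7.51% at 24 h, to be set beside the counts of this and the following lists. Microglia markers (15, of which 10 were above background throughout and Ptprc on no array) were summed over the 14 without Ptprc. They came to 49.5 to 70.2 in control and 61.1 to 73.2 in OGD at 7 h, and to 60.6 to 73.3 and 63.4 to 99.6 at 24 h, with 1 of the 15 (6.67%) called higher at each time. The oligodendrocyte lineage list (14, of which 11 were above background throughout) summed to 221 to 230 in control and 117 to 258 in OGD at 7 h, with 2 called lower (14.3%), and to 261 to 359 and 301 to 491 at 24 h, with 1 called higher (7.14%). The list of vascular cells and fibroblasts (15, of which 9 were above background throughout and Tek on no array, summed over the 14 without Tek) came to 44.9 to 146 and 62.1 to 188 at 7 h, with 3 called lower (20%), and to 39.1 to 143 and 132 to 239 at 24 h, with 2 called higher (13.3%). In RNA from whole cultures, fewer neurons and less of an mRNA per neuron cannot be told apart, and the part of these shifts in the changes of the AMPA receptor and TARP genes was not tested.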

How the data were processed

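Each RNA sample (200 ng) was labeled with Cy3 by the authors and hybridized to 1 one-color array. The deposited intensity values are Agilent Feature Extraction output, background-subtracted and detrended within the array, with no normalization between arrays. The deposited log2 values are the authors' median-centered version of them and served as an alternative. Each array has 44254 spots, of which 42877 are not controls.

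Spots marked as outliers by the software were left out, log2 was taken, replicate spots were averaged per probe, and each array was centered on its median, giving 30367 probes. Of these, 18004 were named through their RefSeq accession and 12363 were not. A single limma model (version 3.58.1, R 4.3.3) held all 4 groups, with two-sided p-values and Benjamini-Hochberg adjustment over all probes. The fit was tested on simulated data. Ratios and pairs of probes of a gene were compared by exact permutation. Figures were drawn with matplotlib 3.10.9. The number of arrays limits the precision. The p-values measure the spread between these arrays, pooled over the 4 groups, so a gene has the same SE at both times. The spread of the groups was not equal (for Gria2 an SD of 1.39 in OGD and 0.17 in control at 24 h). A wide group at 24 h thus also enters the SE at 7 h, and the narrower groups enter that at 24 h. Leaving out a 24 h array can therefore change the calls at 7 h.

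The members, gene lists, motifs and tests were chosen with earlier results of these data known. All 10 members were named. Of the trafficking list, genes with an unadjusted p under 0.05 at either time were named, with Pick1, Grip1, Adarb1, Cnih2 and Cnih3 in any case, and the 2 genes most like each member. Lists of neuron, astrocyte, microglia, oligodendrocyte lineage and vascular or fibroblast markers were read beside them.

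The alternatives were the 75th percentile, quantile normalization, scaling to 1 spike-in probe (32 spots), normexp background with offset 50, dim probes left out, outlier spots kept, the authors' values, the methods' t-test, each time alone, the slide as a block, the mean over the probes of a gene, and each array left out. Normexp was planned on the mean signal and run on the median signal, which is the column used here. Leaving out both slides of replicate 1, the replicate 1 fits of the other gene lists, and the alternatives for the control difference of Cacng7, were chosen after seeing the data.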

Additional observations from a re-analysis of the deposited data

Results flagged for a closer look

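The response to OGD differed between the 2 recovery times for 3 of the 10 genes, by limma's test of the difference itself at an unadjusted p under 0.05, where 3.58% of all probes did. The change at 24 h minus the change at 7 h was -0.97 for Gria1, -0.80 for Cacng7 and -0.98 for Cacng8. Each had an adjusted p of 1. Of the 3, Cacng7 passed without the slides of replicate 1 (-0.92) and not with the 75th percentile, and none passed with spike-in scaling. In Gria1 and Cacng8 the OGD arrays at 24 h were below those at 7 h, and in Cacng7 the control arrays at 24 h were above those at 7 h. The 2 times were on different slides, so time and slide cannot be told apart where 1 group is compared between the times. Each slide held a control and an OGD array, so a shift shared by both drops out of the difference between the changes. Other effects of the slides were not tested.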

How the results depend on the processing

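Cacng3 at 7 h and Gria1, Gria4, Cacng3, Cacng7 and Cacng8 at 24 h had negative changes under every alternative run, but which of them were called, and the sign of small changes, varied with the setting, and the cause was not tested. Counts in this section are given without the share of all probes called in the same fit. Counts of all probes are printed further up for the 75th percentile and spike-in scaling only. Centering on the 75th percentile gave 7 h changes of 0.03 for Gria1 and 0.04 for Cacng4, a 24 h change of 0.06 for Cacng4, and 1 trafficking gene called higher at 7 h and 1 at 24 h. Quantile normalization called 1 of the 10 genes higher at 7 h, and 1 trafficking gene higher at each time. Scaling to the spike-in probe left 0 of the 10 genes called lower at 7 h, 0 at 24 h and 0 with a response that differed between the times, and 0 and 3 trafficking genes lower at 7 h and 24 h. Its 7 h changes were -0.70 for Cacng2, -0.43 for Cacng5, -0.63 for Cacng7 and -0.44 for Cacng8, its 24 h change for Cacng5 was -0.30, its differences between the times were -0.04 for Gria3 and -0.22 for Cacng4, and the control level of Cacng7 differed by -3.20 between 24 h and 7 h. Normexp called 2 of the 10 genes lower at 7 h, 1 differing between the times, and 5 and 8 trafficking genes lower at 7 h and 24 h. Its 7 h changes were -0.48 for Cacng2, 0.40 for Cacng4 and -0.03 for Cacng8, its 24 h change for Cacng4 was 0.12, its differences between the times were 0.02 for Gria4, -0.28 for Cacng4 and -0.32 for Cacng5, and Gria2 relative to Gria1 changed by -0.27 at 24 h. With dim probes left out, and with the authors' values, 1 trafficking gene was called higher at 7 h. The methods' t-test called 3 of the 10 genes lower at 24 h, and of the trafficking genes it called 5 lower and 3 higher early (7 h) and 4 lower with 1 higher late (24 h). Limma on each time alone, where fewer arrays enter, called 3 of the 10 genes lower at 24 h, 6 trafficking genes lower and 1 higher at 7 h, and 7 lower at 24 h. The mean over the probes of a gene gave 0.04 for Gria3 at 7 h, -0.21 for its difference between the times, and -0.31 for Gria2 relative to Gria4 at 7 h.

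Arrays of the same time and replicate number shared a slide, but their deviations from the group means did not all go together. Across probes, r was -0.03, 0.31 and 0.18 on the 7 h slides, against -0.12, 0.16 and -0.19 on the 24 h slides. The number was therefore not taken as a pairing, although correlations among 3 replicates cannot settle whether the cultures were paired. With the slide as a fixed block, 3 of the 10 genes were called lower at 24 h. With it as a random block, 6 were, Cacng2 among them.

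With each array left out in turn, the number of the 10 genes called lower at 24 h ran from 3 to 6, called higher from 0 to 1 at 7 h and from 0 to 1 at 24 h, and differing between the times from 1 to 4. The number of trafficking genes called lower ran from 1 to 6 at 7 h and from 6 to 21 at 24 h, and called higher at 7 h from 0 to 2. The 7 h change ran from -0.10 to 0.22 for Cacng2 and from -0.44 to 0.33 for Cacng4, and the 24 h change from -0.45 to 0.33 for Cacng4 and from -0.37 to 0.03 for Gria3. The difference between the times ran from -0.38 to 0.40 for Cacng4, -0.07 to 0.66 for Cacng5, -1.08 to 0.21 for Gria2, -0.03 to 0.38 for Gria3 and -0.50 to 0.08 for Gria4. Gria2 relative to Gria1 at 24 h ran from -0.23 to 0.54, relative to Gria3 at 7 h from -0.12 to 0.09, and relative to Gria4 at 24 h from -0.44 to 0.37. Leaving out both slides of replicate 1, chosen after seeing the data, gave 2 of the 10 genes lower at 24 h and 1 differing between the times, 1 trafficking gene higher at 7 h and 4 lower at 24 h. Gria3 was then at 0.02 at 7 h and 0.15 at 24 h, and the differences between the times were 0.01 for Gria2, 0.07 for Gria4 and -0.27 for Cacng4.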
